A study of Homo sapiens with 6 samples.

Results

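FOS, FOSB, JUN, JUNB, EGR1, EGR2, EGR3, NR4A1, NR4A2 and NR4A3 are transcription factors of the immediate early response, and their transcripts were followed in MEC-1 cells with a knockdown of UGT2B17. The 10 genes were listed by name, with earlier results of these data known. Each was read on the probe set annotated to that symbol alone, with the brightest taken where a gene had several. Of the 10 genes, 9 were measured in this way among 18404 genes tested, each on a single probe set, and EGR2 was not analysed here. MEC-1 is an established human line of B cells that was grown from a patient's chronic lymphocytic leukemia (CLL). The knockdown cells had received a lentiviral short hairpin RNA (shRNA) against UGT2B17, an enzyme that couples glucuronic acid to steroids and other small molecules, and were hybridised to 3 arrays. The control cells had received a scrambled shRNA by the same route and were also hybridised to 3 arrays. Both groups therefore carried a lentiviral hairpin, and all cells grew in RPMI medium with fetal calf serum and without phenol red or antibiotics. The labels do not say how many hairpins or clones were used, nor that the replicates were separate cultures. The p-values thus cover the spread between these arrays, which may be technical.

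Immediate early genes are transcribed within minutes of a signal, without new protein synthesis, and their RNAs decay quickly. Serum, antigen receptor engagement and cyclic AMP act on them through MAP kinases and through factors such as SRF with its ETS partners and CREB, which are already present in resting cells. FOS and JUN proteins pair through leucine zippers into the AP-1 complex, EGR proteins bind GC-rich sites through zinc fingers, and NR4A proteins are orphan nuclear receptors that act without a known hormone. In B cells EGR1 and NR4A1 are widely used as readouts of B cell receptor signalling.

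UGT2B17 itself read 3.19, 3.27 and 3.17 log2 units with the knockdown, against 3.95, 3.69 and 3.91 with scrambled shRNA, on a dim probe set. Its fold change was −0.64 ± 0.08 log2 units (SE; limma, adjusted p = 0.00654), and the groups did not overlap. Probe sets that other UGT2B genes share differed by unlike amounts. A dim one naming UGT2B17 with UGT2B28, UGT2B11, UGT2B10, UGT2B7, UGT2B4 and LOC101929773 averaged 3.69 ± 0.05 log2 units with the knockdown. It averaged 3.90 ± 0.04 with scrambled shRNA (SD, n = 3 each), a smaller change of −0.21. Much brighter ones differed more. The one naming UGT2B17 and UGT2B15 averaged 6.72 ± 0.15 log2 units with the knockdown and 8.06 ± 0.05 with scrambled shRNA (SD, n = 3 each), a change of −1.34. The one naming UGT2B17 with UGT2B11, UGT2B15, UGT2B10 and UGT2B7 averaged 7.84 ± 0.19 with the knockdown and 9.34 ± 0.27 with scrambled shRNA, a change of −1.50, and these shared signals do not separate the genes. Of the B cell markers CD79A, CD79B, MS4A1, PAX5, CD22, CD37, CD72 and BLK, 0 of 8 passed the test (limma, adjusted p under 0.05; 1 had an unadjusted p under 0.05, beside 18.2% of all genes). PAX5 read −0.21 and CD72 0.22 log2 units. The knockdown arrays all lay above the scrambled arrays for 4 of the 8 (MS4A1, CD22, CD37 and CD72), beside 11.8% of all genes. They all lay below for 1 (PAX5), beside 2402 of 18404 genes. The array means of these markers were 10.42 to 10.44 log2 units with the knockdown and 10.29 to 10.43 with scrambled shRNA. Array means over the T cell markers (4), monocyte markers (4), erythroid markers (2), and epithelial and fibroblast markers (4) lay between 5.12 and 6.35 with the knockdown and between 5.10 and 6.42 with scrambled shRNA, and none of these 14 genes passed (limma; 3 had an unadjusted p under 0.05, beside 18.2% of all genes). The fold changes with the smallest p were 0.074 for CD2 and 0.048 for CD3D of T cells, −0.19 for CD14 and −0.099 for LYZ of monocytes, and 0.066 for HBB and 0.0021 for ALAS2 of erythroid cells. The epithelial markers went in opposite directions, KRT8 at 0.19 and EPCAM at −0.36, and EPCAM passed without scrambled replicate 3 (−0.47; limma, adjusted p = 0.0411). Of the 4 epithelial and fibroblast markers, 2 were above 0 and 2 below. Over all genes, scrambled replicate 3 deviated most from its group mean, by a root mean square of 0.138 log2 units against 0.0771 to 0.112 for the other arrays. The values of each factor are therefore also given without it.

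EGR1 and NR4A3 rose with the knockdown, and the other 7 measured factors did not pass the test. The count of 2 of 9 higher stands beside 1.92% of all genes tested (354 of 18404), and 0 of 9 were lower, beside 1.69% (311 of 18404; limma, Benjamini-Hochberg adjusted p under 0.05). Because the factors were chosen with earlier results of these data known, the shares given here are a description and no test of the list. None of the 9 was lower at an unadjusted p under 0.05 either, while 6 of 9 had such a p with a higher level, beside 18.2% of all genes with such a p in either direction. Fold changes were above 0 for 8 of 9 factors, and their median was 0.20 log2 units beside −0.0022 over all genes. In such bulk RNA, a larger share of cells with a transcript and more transcript per cell cannot be told apart. The knockdown arrays all lay above the scrambled arrays for 6 of the 9, beside 11.8% of all genes. Without scrambled replicate 3 the same 2 genes passed, all 9 fold changes were above 0 and the median was 0.18. The plot of levels by array shows the 9 factors side by side.

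**Figure D1:**
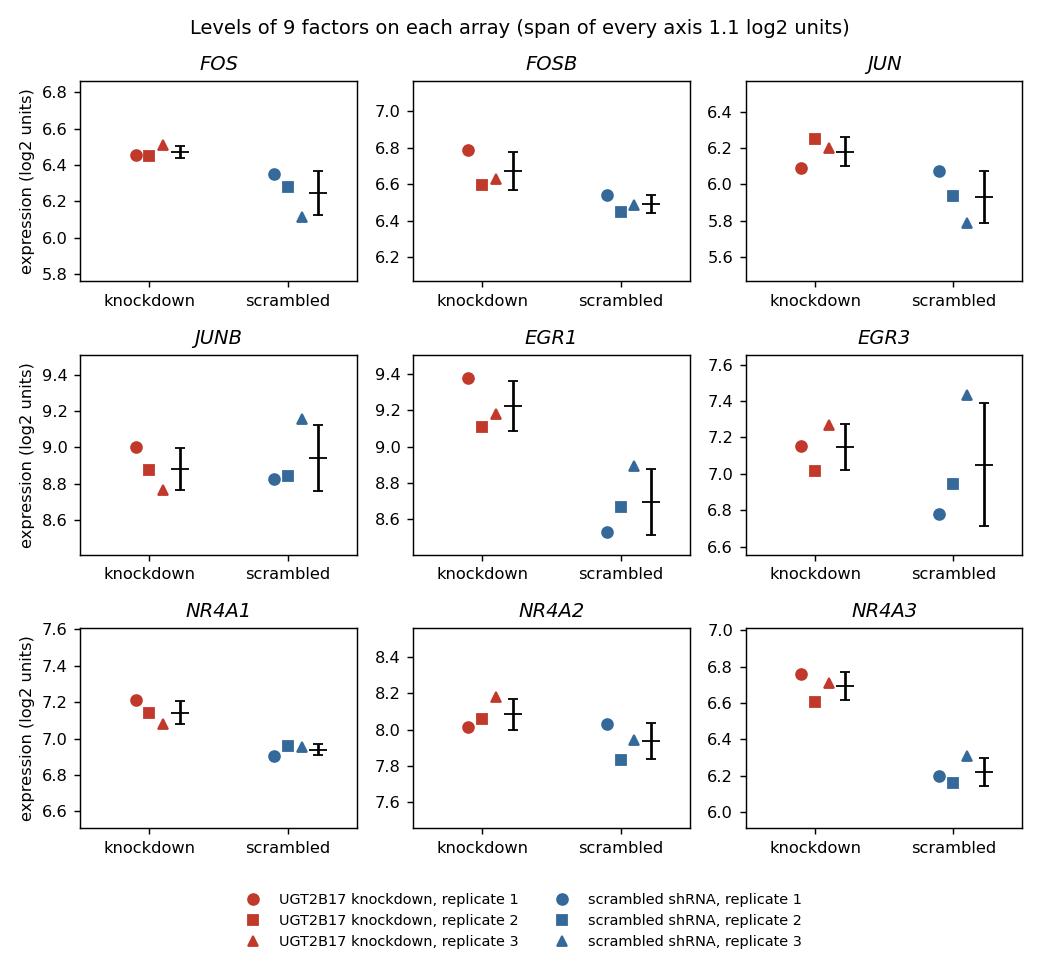
Expression (y axis, log2 units) of the 9 measured factors on each array, with UGT2B17 knockdown left and scrambled shRNA right in each panel. Symbols are replicates, bars are the group mean ± SD (n = 3 each), and each axis spans the same width. The groups are apart for FOS, FOSB, JUN, EGR1, NR4A1 and NR4A3 and overlap for JUNB, EGR3 and NR4A2.

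EGR1 encodes a zinc finger activator that is switched on by MAP kinase signalling. It read 9.38, 9.11 and 9.18 log2 units in knockdown cells, against 8.53, 8.67 and 8.89 in scrambled cells. The lowest knockdown array stood above the highest scrambled array. The means were 9.22 ± 0.14 with the knockdown and 8.70 ± 0.18 with scrambled shRNA (SD, n = 3 each; limma). The difference was 0.53 ± 0.11 log2 units (SE), or 1.44-fold, with a 95% interval of 0.28 to 0.77 (limma, adjusted p = 0.0340). This was a larger absolute change than in 98.6% of all genes. The call was lost when any array other than scrambled replicate 3 was left out, with fold changes of 0.44 to 0.58 and adjusted p up to 0.129, and it held without scrambled replicate 3 at 0.62 (adjusted p = 0.0126).

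EGR3, a close relative of EGR1 that acts in lymphocyte activation, did not pass. It read 7.15, 7.02 and 7.27 log2 units with the knockdown, against 6.78, 6.94 and 7.43 with scrambled shRNA. The scrambled arrays enclosed all knockdown arrays, with scrambled replicate 3 the highest of the 6 and scrambled replicate 1 the lowest. The fold change was 0.094 ± 0.15 (SE; 95% interval −0.25 to 0.44; limma, adjusted p = 0.807), a range that holds the change seen for NR4A2 or FOS as well as none. Without scrambled replicate 3 it was 0.28 (adjusted p = 0.141), and without scrambled replicate 1 it was −0.042. With differences taken within arrays, EGR1 gained on average 0.43 log2 units on EGR3 with the knockdown. The EGR1 to EGR3 difference, set to a mean of 0 in scrambled cells, was 0.58, 0.45 and 0.27 on the knockdown arrays, against 0.11, 0.08 and −0.19 on the scrambled arrays. The groups did not overlap, and a two-sided exact permutation test gave p = 0.1, the lowest value possible with 3 arrays a group (0.2 after adjustment over the 6 pairs of factors compared).

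NR4A3, the orphan receptor also called NOR-1, read 6.76, 6.61 and 6.71 log2 units with the knockdown, against 6.20, 6.16 and 6.31 with scrambled shRNA. The groups lay far apart relative to their spread, and NR4A3 had the smallest p of the 9 factors. The means were 6.69 ± 0.08 with the knockdown and 6.22 ± 0.08 with scrambled shRNA (SD, n = 3 each; limma). The difference was 0.47 ± 0.07 log2 units (SE), or 1.39-fold, with a 95% interval of 0.31 to 0.63 (limma, adjusted p = 0.0120). Leaving out knockdown replicate 1, knockdown replicate 3 or scrambled replicate 2 ended the call, with adjusted p of 0.0639, 0.0623 and 0.0651, while the fold change stayed between 0.44 and 0.51 over all 6 omissions. Without scrambled replicate 3 it was 0.51 (adjusted p = 0.00925).

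NR4A1, known as Nur77 and rapidly induced by antigen receptors, read 7.21, 7.14 and 7.08 log2 units with the knockdown, against 6.90, 6.96 and 6.95 with scrambled shRNA. The groups did not overlap, but the gene did not pass over all genes (0.20 ± 0.06, SE; 95% interval 0.06 to 0.35; limma, adjusted p = 0.134), and without scrambled replicate 3 it read 0.21 (adjusted p = 0.138). NR4A2, known as Nurr1, read 8.01, 8.06 and 8.18 with the knockdown, against 8.03, 7.84 and 7.94 with scrambled shRNA. Its groups overlapped through scrambled replicate 1, and it did not pass (0.15 ± 0.08, SE; 95% interval −0.03 to 0.32; limma, adjusted p = 0.366). Without scrambled replicate 3 the value was 0.15 (adjusted p = 0.405). With differences taken within arrays, NR4A3 gained on average 0.27 log2 units on NR4A1 and 0.32 on NR4A2. Both gains separated the groups without overlap, with an exact permutation p of 0.1 each, the lowest possible (0.2 adjusted over the 6 pairs). In these pairs, as in that of EGR1 and EGR3, a factor that passed was set against one that did not. A gain follows in part from that choice. Between the 2 factors that passed, the changes of EGR1 and NR4A3 differed by 0.055, with overlapping groups (exact permutation p = 0.7, also after adjustment). As 0.1 is the lowest p possible here, this test cannot show that their changes were equal.

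**Figure D2:**
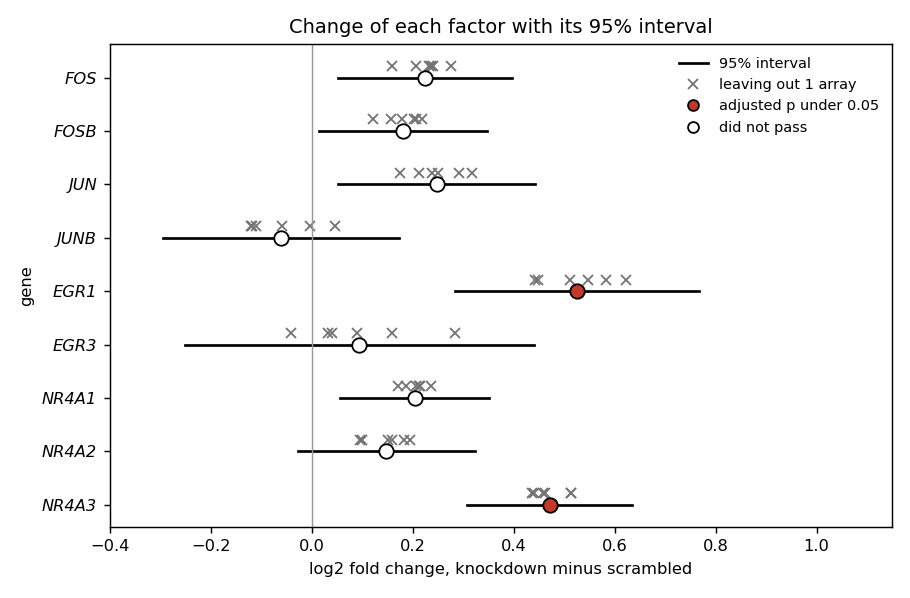
Log2 fold change (x axis, knockdown minus scrambled) of each factor (y axis), with circles for the estimate from all 6 arrays, lines for its 95% interval and crosses for the estimates that leave out 1 array. EGR1 and NR4A3, filled, are the factors that passed, at 0.53 and 0.47, and JUNB and EGR3 have crosses on both sides of 0.

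None of the 4 AP-1 subunits passed. FOS, the FOS-family partner that cannot pair with itself, read 6.46, 6.45 and 6.51 log2 units with the knockdown, against 6.35, 6.28 and 6.11 with scrambled shRNA. All knockdown arrays were higher, by a mean of 0.22 ± 0.08 (SE; limma, adjusted p = 0.159), which did not pass. That difference was 0.16 without scrambled replicate 3 (adjusted p = 0.231). FOSB, a second FOS-family subunit, read 6.79, 6.60 and 6.63 with the knockdown, against 6.54, 6.44 and 6.48 with scrambled shRNA. Here too the groups did not overlap, and the difference of 0.18 ± 0.07 did not pass (SE; limma, adjusted p = 0.235). FOSB read 0.18 without scrambled replicate 3 (adjusted p = 0.284).

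JUN, the subunit that can form AP-1 alone or with FOS, read 6.09, 6.25 and 6.20 log2 units with the knockdown, against 6.07, 5.94 and 5.79 with scrambled shRNA. The gap between knockdown replicate 1 and scrambled replicate 1 was small, and the difference of 0.25 ± 0.09 did not pass (SE; limma, adjusted p = 0.171). It was 0.18 without scrambled replicate 3 (adjusted p = 0.275). JUNB, a JUN-family subunit with weaker activation than JUN, read 9.0, 8.88 and 8.77 with the knockdown, against 8.83, 8.84 and 9.15 with scrambled shRNA. It had the only fold change below 0, at −0.061 ± 0.10 (SE; 95% interval −0.29 to 0.17; limma, adjusted p = 0.817), and the groups overlapped. The sign of JUNB rested on scrambled replicate 3, without which the fold change was 0.045. Between relatives, with differences taken within arrays, JUN gained on average 0.31 on JUNB and FOS 0.044 on FOSB. The groups overlapped in both pairs (exact permutation p = 0.3 and 0.5). On knockdown replicate 1 the FOS to FOSB difference was −0.088 from the scrambled mean.

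The factors differed in which replicate of a treatment gave the highest level. Among scrambled arrays, FOS and JUN were highest on replicate 1 and lowest on replicate 3, at −0.13 and −0.14 log2 units from their group mean on replicate 3. JUNB, EGR1 and EGR3 were lowest on scrambled replicate 1 and highest on scrambled replicate 3, where they stood 0.21, 0.20 and 0.38 above the group mean. SRF, which acts upstream of several of these genes and was picked after its values were seen, was also highest there. It read 9.63 against 9.22 and 9.20 on the other scrambled arrays. Of the 16 measured upstream transcription factors, 5 had their highest level of all arrays there, a share near that of all genes (5319 of 18404). Heat shock genes had their highest level on that array for 7 of 8 measured members, beside the same 5319 of 18404 genes. Their array mean was 10.4 log2 units there, against 9.84 and 9.97 on the other scrambled arrays and 9.90 to 9.91 with the knockdown. The part of this difference in the results for JUNB and EGR3 was not tested beyond the values without that array. Among knockdown arrays, replicate 1 held the highest EGR1, JUNB, FOSB, NR4A1 and NR4A3 and the lowest JUN and NR4A2.

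**Figure D3:**
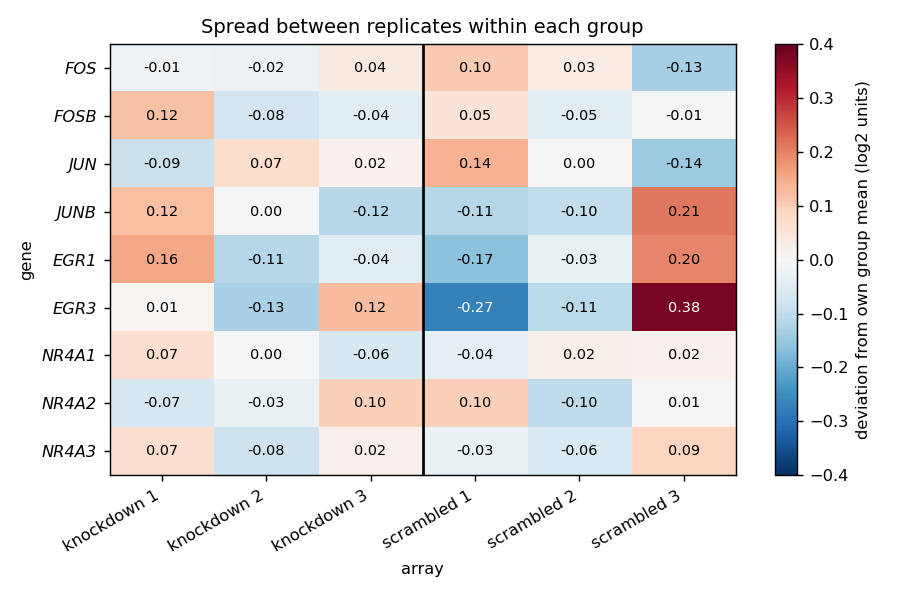
Deviation of each factor (rows) from its own group mean on each array (columns, knockdown left of the line and scrambled right), in log2 units by colour and printed value. On scrambled replicate 3, EGR3, JUNB and EGR1 are above their group mean by 0.38, 0.21 and 0.20 and FOS and JUN below it by 0.13 and 0.14.

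The promoters of the factors were read for the sites through which immediate early genes are known to be switched on. RefSeq (GRCh38.p14) gave a promoter, from 250 bases before to 50 bases after 1 start site per gene, for 7 of the 9 measured factors, namely FOS, FOSB, JUN, JUNB, EGR1, NR4A1 and NR4A3. The promoters of EGR1 (chr5:138465229-138465528, plus strand) and NR4A3 (chr9:99821635-99821934, plus strand) are shown because these genes passed, that of FOS (chr14:75278578-75278877, plus strand) because it was higher without passing, and that of JUNB (chr19:12791236-12791535, plus strand) because it did not separate the groups. They run 5′ to 3′, and capitals mark TGACG or its reverse complement, the core of the CREB-bound cyclic AMP response element (CRE), the CArG box bound by SRF, and the TATA box letters TATAAA or their reverse complement.
EGR1: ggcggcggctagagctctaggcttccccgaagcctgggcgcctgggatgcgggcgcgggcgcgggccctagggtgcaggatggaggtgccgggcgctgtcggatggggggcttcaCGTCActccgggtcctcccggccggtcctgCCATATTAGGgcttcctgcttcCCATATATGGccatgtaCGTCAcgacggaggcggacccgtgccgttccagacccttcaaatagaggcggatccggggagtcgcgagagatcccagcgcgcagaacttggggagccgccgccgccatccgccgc
NR4A3: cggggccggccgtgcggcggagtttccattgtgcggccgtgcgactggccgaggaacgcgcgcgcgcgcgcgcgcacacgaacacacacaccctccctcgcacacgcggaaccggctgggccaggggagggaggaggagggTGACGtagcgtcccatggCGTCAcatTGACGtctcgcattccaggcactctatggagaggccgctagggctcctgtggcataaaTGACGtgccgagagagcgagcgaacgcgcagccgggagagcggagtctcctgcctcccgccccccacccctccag
FOS: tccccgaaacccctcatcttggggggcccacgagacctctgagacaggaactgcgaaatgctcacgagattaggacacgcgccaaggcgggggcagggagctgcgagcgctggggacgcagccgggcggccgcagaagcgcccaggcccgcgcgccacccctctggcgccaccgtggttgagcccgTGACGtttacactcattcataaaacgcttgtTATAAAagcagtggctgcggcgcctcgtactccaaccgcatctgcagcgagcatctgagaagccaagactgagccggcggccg
JUNB: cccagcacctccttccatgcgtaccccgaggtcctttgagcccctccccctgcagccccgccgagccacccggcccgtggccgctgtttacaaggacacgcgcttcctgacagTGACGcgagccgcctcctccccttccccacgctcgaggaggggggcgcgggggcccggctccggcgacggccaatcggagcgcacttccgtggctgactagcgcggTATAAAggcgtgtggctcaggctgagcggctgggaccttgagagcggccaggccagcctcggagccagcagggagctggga

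The CRE core TGACG, sought on both strands, was present in 6 of these 7 promoters, all but that of NR4A1, beside 25% of 27305 promoters of the same length. Only 1 start site per gene was read, so letters near another start of NR4A1 would not be seen. NR4A3 had 4 copies, a number reached by 0.330% of promoters, at positions −109, −91, −83 and −25 from the start. EGR1 had 2 copies, as 6.22% of promoters had 2 or more, and FOS and JUNB had 1 each. The full palindrome TGACGTCA, in which the core is read once on each strand, was in 0 of the 7, beside 1.98%. Within the window read, EGR1 alone held CArG boxes, CCATATTAGG at position −105 and CCATATATGG at −83. Of all promoters, 1.29% had at least 1 and 0.0330% had 2 or more. Boxes farther upstream, in FOS or another factor, would not be seen, so their absence was not tested. TATAAA stood at −33 in FOS, −30 in FOSB and −31 in JUNB, beside 12.0% of promoters. The AP-1 letters TGANTCA and the NR4A-bound letters AAAGGTCA (NBRE) were in none of the 7, beside 7.76% and 1.21%. The EGR-bound letters GCGNGGGCG were in 1, EGR1 itself, beside 9.28%, and the ETS core CCGGAA in FOSB and NR4A1, beside 17.6%. JUNB, which did not separate the groups, carried the same CRE core and TATA letters as FOS, and neither gene passed. Whether any of these letters bear on the changes was not tested.

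Genes with the binding letters of these factors, or with the CArG box of SRF or the CRE of CREB, in the same window were counted as a description. Of 14230 genes tested that had a promoter, 1.90% were higher and 1.76% lower with the knockdown. With the EGR letters, 44 of 1863 were higher (2.36%), EGR1 itself among them, and 46 lower (2.47%). With the AP-1 letters, 21 of 794 were higher (2.64%) and 10 lower (1.26%). With the NR4A letters, 0 of 125 were higher and 5 lower (4%). These 5, named because they were few and after their values were seen, were VPS25 at −0.65, PLEK at −0.49, NAA50 at −0.36, DIP2B at −0.34 and DCAF7 at −0.31 log2 units. PLEK encodes pleckstrin, a protein kinase C substrate of blood cells, VPS25 a subunit of the endosomal sorting complex ESCRT, and NAA50 an N-terminal acetyltransferase. With a CArG box, 2 of 174 were higher, EGR1 and ZNF548 (0.40), and 3 were lower, H2BC21 at −0.53, MYO1E at −0.47 and FOXP2 at −0.36. The median fold change lay between −0.0161 and 0.00912 log2 units for the CRE, AP-1, EGR, NR4A and CArG groups, beside −0.00431 over all genes with a promoter.

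Dimer partners of FOS and JUN showed no member that passed. Of 15 listed AP-1 partners, 13 were measured, 0 passed (limma; 4 had an unadjusted p under 0.05, beside 18.2% of all genes), and the median fold change was 0.034 log2 units. The 4 were also the ones whose knockdown arrays all lay above the scrambled arrays, beside 11.8% of all genes. They were the small MAF proteins MAFG at 0.21 ± 0.06 and MAFF at 0.24 ± 0.07, the stress-induced repressor ATF3 at 0.28 ± 0.10 and the FOS relative FOSL2 at 0.17 ± 0.07 (SE; limma, adjusted p = 0.121, 0.130, 0.189 and 0.229). JUND read 0.11 and FOSL1 0.024. Of 7 relatives and partners of the EGR and NR4A proteins, 0 passed and 0 had an unadjusted p under 0.05 (limma; median 0.043). RXRB, a dimer partner of nuclear receptors, read 0.24 ± 0.11 and NAB1, a corepressor bound by EGR1, 0.15 ± 0.07 (SE).

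Upstream of the factors, ELK3, an ETS partner of SRF that represses in the absence of MAP kinase signals, was the gene that fell. It read 7.84, 7.99 and 8.01 log2 units with the knockdown, against 8.23, 8.34 and 8.27 with scrambled shRNA, a fold change of −0.34 ± 0.07 (SE; limma, adjusted p = 0.0426). The groups did not overlap, yet the call was lost when any of the 6 arrays was left out, with fold changes of −0.37 to −0.28 and adjusted p up to 0.152. Of the 16 measured upstream transcription factors, 0 rose, 1 fell and 15 did not pass, beside 1.92% of all genes higher and 1.69% lower. Their median was −0.0012, and 7 had an unadjusted p under 0.05 (limma), beside 18.2% of all genes. SRF read −0.023, CREB1 −0.21 and MEF2D 0.27, and MEF2D passed without scrambled replicate 3 (0.30; limma, adjusted p = 0.0367). Of 16 upstream kinases, 0 passed (limma; median −0.043), and 3 had an unadjusted p under 0.05, beside 18.2% of all genes. The ERK-activated kinase RPS6KA3 (RSK2) read 0.29 ± 0.07 and RPS6KA5 (MSK1), which phosphorylates CREB, −0.25 ± 0.06 (SE; limma, adjusted p = 0.0653 and 0.0699). Without scrambled replicate 3, RPS6KA3 passed at 0.33 and CAMK4, a calcium-activated kinase, at −0.28 (limma, adjusted p = 0.0481 and 0.0484).

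Of 10 dual specificity phosphatases, which dephosphorylate MAP kinases and are themselves induced by them, 1 rose and 9 did not pass (median 0.16 log2 units). Beside these stand 1.92% of all genes higher and 1.69% lower. An unadjusted p under 0.05 (limma) was found for 4 of the 10, beside 18.2% of all genes. DUSP4, a nuclear phosphatase of this family, read 7.20, 7.14 and 7.33 log2 units with the knockdown, against 6.25, 6.40 and 6.61 with scrambled shRNA. The lowest knockdown array was above the highest scrambled array, and the fold change was 0.81 ± 0.10 (SE; limma, adjusted p = 0.00559), which held in all 6 omissions of 1 array. The ERK-directed phosphatase DUSP6 read 0.28 and passed without scrambled replicate 3 (0.39; limma, adjusted p = 0.0253), and the widely induced DUSP1 read 0.16, which did not pass.

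Other immediate early genes changed in both directions. Of 44 measured, 6 rose, 3 fell and 35 did not pass, beside 1.92% of all genes higher and 1.69% lower. Their median was 0.10 log2 units, and 21 had an unadjusted p under 0.05, beside 18.2% of all genes. GEM, a small GTPase that inhibits calcium channels, rose by 1.11 ± 0.08, and RGS1, a regulator of G protein signalling in B cells, by 0.89 ± 0.08 (SE; limma, adjusted p = 0.000826 and 0.00207). PPP1R15A (GADD34), a phosphatase subunit of the stress response, rose by 0.42 ± 0.07, and TRIB1, a pseudokinase that binds MAP kinase kinases, fell by 0.55 ± 0.07 (SE; limma, adjusted p = 0.0133 and 0.00722). The calls of GEM, RGS1 and TRIB1 held in all 6 omissions of 1 array, and that of PPP1R15A was lost without knockdown replicate 1, knockdown replicate 2 or scrambled replicate 2 (adjusted p up to 0.0772). The other genes that passed, named after their values were seen, were BHLHE40 (0.46), RGS2 (0.45) and KLF10 (0.39), which rose, and CD83 (−0.39) and IER3 (−0.33), which fell. Each of these 5 calls was lost without any 1 of the knockdown arrays or without scrambled replicate 2, and those of RGS2 and IER3 also without scrambled replicate 1 (limma, adjusted p up to 0.151). Without scrambled replicate 3 the count was 7 higher and 3 lower, HES1, a repressor downstream of Notch, being the gene added. Of 8 heat shock genes 0 passed and 0 had an unadjusted p under 0.05 (limma). Their median was −0.21 with all arrays and −0.040 without scrambled replicate 3, with DNAJB1 at −0.31 and HSP90AA1 at −0.26.

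**Figure D4:**
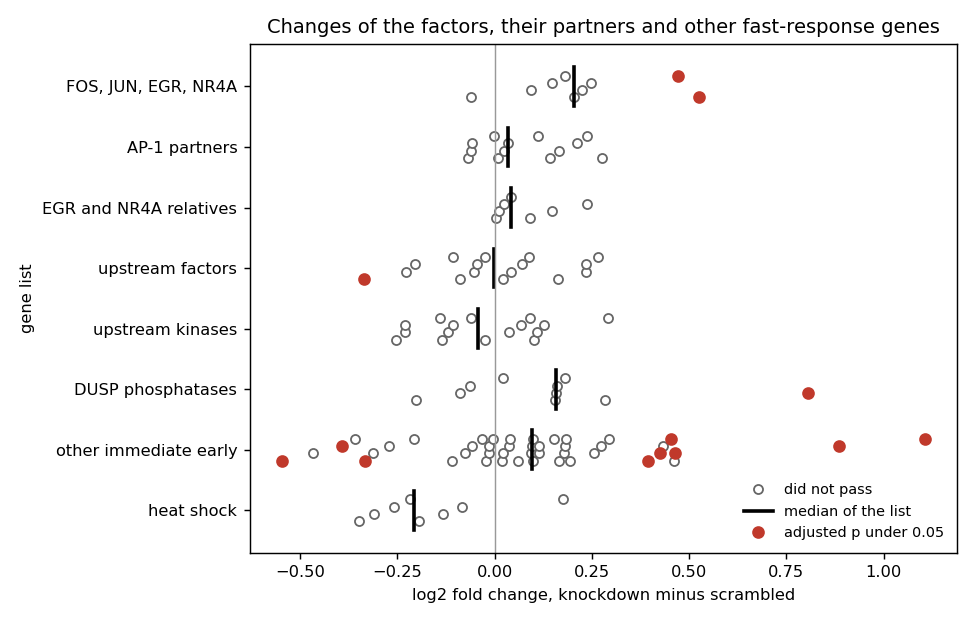
Log2 fold change (x axis, knockdown minus scrambled) of the 9 factors and of 7 other gene lists (y axis), with 1 circle per gene, filled where the adjusted p was under 0.05, and a bar at the median of each list. The median of the factors is at 0.20, that of the phosphatases at 0.16 and that of the heat shock genes at −0.21.

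The genes whose levels over the 6 arrays were most like those of NR4A3 were chosen from all genes by Pearson correlation, as a description. They were USF2 (r = 0.996), a helix-loop-helix transcription factor, PRF1 (0.996), the pore-forming protein perforin, GM2A (0.995), the activator of ganglioside breakdown, TMEM214 (0.994) and PPFIA3 (0.994). NR4A3 differed between the groups, so these correlations include that difference. TMEM214, a membrane protein of the endoplasmic reticulum, rose by 0.56 ± 0.07 log2 units and GM2A by 0.34 ± 0.07 (SE; limma, adjusted p = 0.00546 and 0.0300). PPFIA3 at 0.21, PRF1 at 0.17 and USF2 at 0.093 did not pass.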

How the data were processed

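Biotin-labelled total RNA of each sample was read on 1 Affymetrix whole-transcript array, per the labels' protocols. The authors deposited log2 values made with RMA, per the submitters' processing notes. The RMA version and probe set library are not given in these sources. They ran from 2.20 to 14.3 over 32321 probe sets, of which 19158 have 1 gene symbol in the platform annotation, 1388 several and 11775 none listed. RMA compresses changes of dim probe sets, and the number of arrays limits the precision.

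For each of 18404 genes the probe set with the highest mean was kept. Groups, taken from the labels, were compared on the deposited log2 values by a two-sided moderated test (lmFit, then eBayes, of limma 3.58.1, under R 4.3.3) without covariates. P-values were adjusted by Benjamini-Hochberg over all genes, with a threshold of 0.05. Fold changes are knockdown minus scrambled. The fit was tested on simulated data. Motifs were matched as exact letters in RefSeq promoters. The factors and gene lists were chosen with earlier results of these data known. Of 161 list entries, 145 were measured, and the rest were not analysed here. Named beside the factors were, per list, up to 4 genes that passed with the smallest p, or the 2 with the smallest p where none passed, and the 5 genes most like NR4A3; other genes named were chosen after their values were seen. Same-numbered arrays of the groups did not deviate together (r = −0.05, −0.07 and −0.03 over genes). Alternatives were another quantile normalisation, median centring, brighter genes only, an intensity trend or robust prior, array weights, all single-symbol probe sets, their mean per gene, a replicate block, an adjusted p under 0.1, and leaving out each array.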

Additional observations from a re-analysis of the deposited data

How the results depend on the processing

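The count of 2 factors higher and 0 lower was the same with another quantile normalisation, median centring, brighter genes only (where FOS and JUN were too dim to be tested), an intensity trend, a robust prior, all single-symbol probe sets and an adjusted p under 0.1. With array weights 7 were higher, all but JUNB and EGR3, and 1802 genes higher and 1709 lower over all genes. These weights ran from 0.25 to 6.12, so that fit leaned on some arrays far more than on others. The replicate number as a block gave 1 factor higher (NR4A3; EGR1 had an adjusted p of 0.0676 in limma) and 189 genes higher and 178 lower; the numbers do not pair the arrays. An adjusted p under 0.1 gave 612 genes higher and 595 lower. Leaving out 1 array gave 0 to 2 factors higher, 75 to 391 genes higher and 77 to 368 lower; such fits have fewer arrays. Median centring gave 275 genes higher and 316 lower, and no scaling moved the median of all genes by over 0.1 log2 units. JUNB turned to 0.0128 with array weights and ran from −0.120 to 0.0454 over the omissions of 1 array, the highest without scrambled replicate 3. EGR3 ran from −0.0417 without scrambled replicate 1 to 0.284 without scrambled replicate 3. The cause of these changes was not tested. FOS, FOSB, JUN, NR4A1 and NR4A2 kept a positive fold change in every alternative that tested them. Levels of FOS, JUN and NR4A3 lay at percentiles 44.5 to 50.6 of all probe sets, where RMA may compress changes.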
